A study of Mus musculus with 12 samples.

Results

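The adipocyte progenitor markers described here are 10 genes: Pdgfra, Pdgfrb, Dpp4, Pi16, Icam1, F3, Ly6a, Cd34, Clmp and Prrx1. Of the 55401 genes in the deposited counts, 16540 passed the filter on low counts, and all 10 markers were among them. Of these, 8 were taken for their known use in telling adipocyte progenitors apart, whereas Clmp and Prrx1 were picked because their levels in these same libraries were higher in Jmjd1a HY/HY mice at both temperatures. For Clmp and Prrx1 all differences between groups of these libraries are therefore given as a description, with no test. RNA came from the subcutaneous white fat (scWAT) of females that were 16 weeks old when treatment began, with 3 libraries in each of 4 groups. Each library is taken to be 1 mouse, which the labels do not state. Wild-type mice (Jmjd1a +/+, WT) and Jmjd1a HY/HY mice, all on the C57BL/6J background and caged singly, spent 1 week at 30°C and then 1 week at either 30°C or 8°C. The HY allele, made by CRISPR/Cas9, changes a histidine of the catalytic domain of JMJD1A to tyrosine and leaves the histone demethylase without activity. It is carried by every cell of the mouse, so that an effect in progenitors cannot be told apart from an effect in adipocytes or outside the fat, and all HY/HY mice come from a single founder line.

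White fat is built of adipocytes that store lipid and of a stroma that holds vessels, immune cells and the fibroblast-like cells from which new adipocytes arise. These progenitors carry the PDGF receptors PDGFRα and PDGFRβ, the surface proteins SCA-1 (Ly6a) and CD34, and the transcription factor PRRX1. In mouse scWAT they are commonly ordered by further surface proteins: interstitial progenitors with DPP4 and PI16 are held to be the least committed, cells with ICAM1 are closer to becoming adipocytes, and cells with tissue factor (F3, CD142) include a stromal population that restrains adipogenesis. CLMP is an adhesion protein of the immunoglobulin superfamily, also called adipocyte adhesion molecule. In the cold, beige adipocytes that burn fat arise in scWAT from progenitors and from white adipocytes. In RNA from whole tissue, fewer cells of a type and less RNA per cell cannot be told apart.

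The markers moved little as a group. With cold, Cd34 rose 1.66-fold and Ly6a fell 1.54-fold in WT mice. The interaction of cold with genotype passed edgeR's quasi-likelihood test for neither of them (adjusted p = 0.143 and 0.594). Pdgfra was 1.58-fold higher in HY/HY than in WT mice when both temperatures were averaged. With a library left out in turn, the call of Cd34 was kept in 7 of 12 fits, that of Ly6a in 3 and that of Pdgfra in 1. Pdgfrb, Dpp4, Pi16, Icam1 and F3 passed the test in none of the 6 comparisons. Clmp, which was picked on these libraries, had a fitted level 2.53-fold higher at 8°C than at 30°C in HY/HY mice and 1.43-fold higher in WT mice.

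Each library held 13592629 to 26352081 read pairs counted on the sense strand of genes (median 18130585). Levels are CPM, counts per megacount of a library whose size was scaled by the TMM method of edgeR. Ucp1, the heat-producing protein of beige and brown adipocytes, was at 0.116 to 4.58 CPM in the 6 libraries at 30°C, at 5048 to 6055 CPM in WT mice at 8°C and at 212 to 904 CPM in HY/HY mice at 8°C. Kdm3a, the gene that encodes JMJD1A, lay between 35.7 and 61.7 CPM in all 12 libraries; the HY allele changes the sequence of the protein, so these counts do not check the genotype. All 8 mature adipocyte markers, from Adipoq to Fabp4, were present, with summed levels of 15121 to 45342 CPM. Mammary epithelium, which lies within the female fat pad, also contributed RNA: the summed level of 8 of its markers was 571 to 3921 CPM and was highest in the 3 WT libraries at 30°C. The summed level of 6 skeletal muscle markers was 1046 CPM in WT replicate 2 at 30°C and at most 21.6 CPM in the other 11 libraries. Markers of lymph node (7 measured) summed to 2.53 to 16.8 CPM, and 5 markers of mesothelium, which covers visceral rather than subcutaneous fat, to 1.8 to 5.51 CPM.

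Read per kilobase of exon, the 10 markers spanned a wide range of levels. The mean over 12 libraries was 299 CPM per kilobase for Ly6a and 120 for F3, followed by 32.4 for Cd34, 14.4 for Pdgfrb and 11.6 for Clmp. It was 5.98 CPM per kilobase for Icam1, 5.66 for Pdgfra, 4.79 for Pi16, 3.22 for Prrx1 and 0.691 for Dpp4. The weakest marker, Dpp4, rested on 26 to 289 read pairs per library, the others on at least 105. Between the lowest and the highest library, levels differed 12.5-fold for Pi16, 5.71-fold for Dpp4 and 5.21-fold for Clmp, but only 1.83-fold for Pdgfrb and 1.96-fold for Icam1. The widest ranges thus belonged to both interstitial markers, whose spread lay within groups, and to Clmp, whose spread lay between them.

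**Figure D1:**
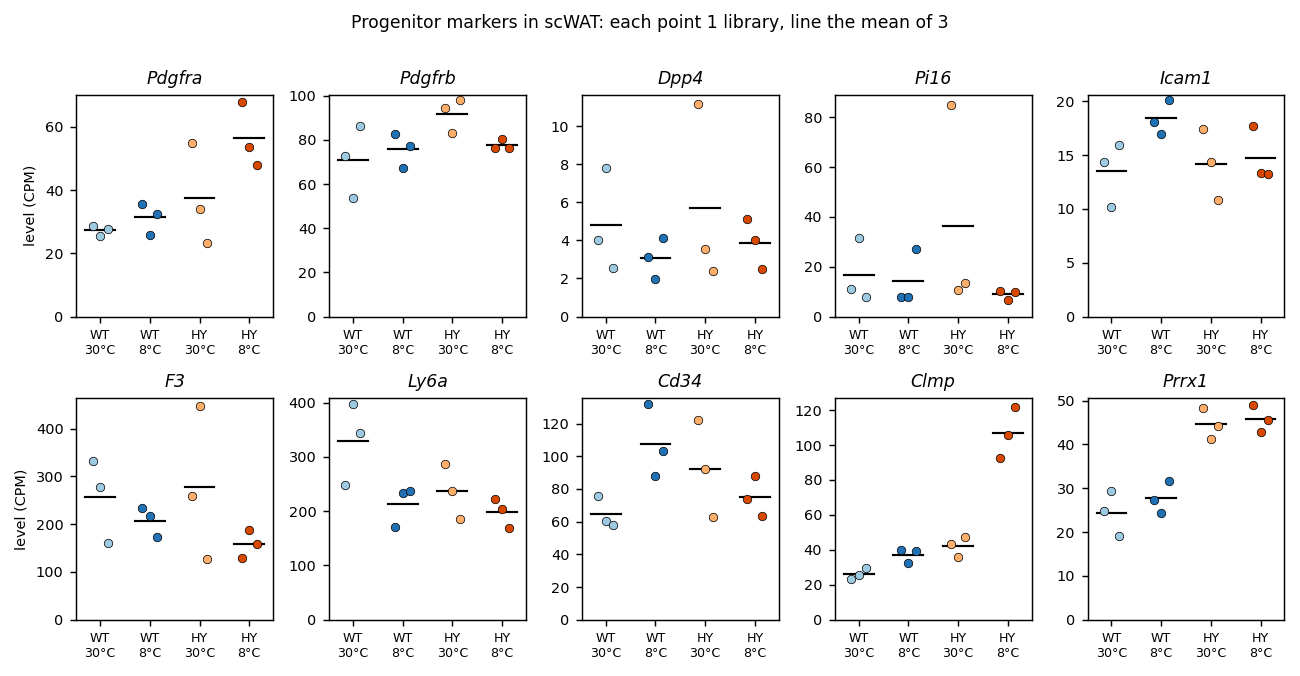
Level of each of the 10 markers in each library (CPM with TMM-scaled library sizes, linear axes from 0), with the groups on the x axis, 1 point per library and a line at the mean of 3. Clmp stood highest in the 3 HY/HY libraries at 8°C (92.5 to 122 CPM), Prrx1 was higher in all 6 HY/HY libraries than in all 6 WT libraries, and Pi16 was led by 1 HY/HY library at 30°C with 85.1 CPM.

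The first question was how the markers respond when cold drives beiging in WT mice. A call needed both an adjusted p under 0.05 in edgeR's quasi-likelihood test and a fold change above 1.5 or below 0.67. Of the 8 markers chosen by role, 1 was called higher at 8°C (Cd34) and 1 lower (Ly6a), against 10.3% and 6.93% of all genes tested. The 3 libraries at 8°C lay wholly above or below the 3 at 30°C for 3 of the 8 markers, Icam1, Ly6a and Cd34, while this held for 43.4% of all genes. The median log2 fold change was -0.07 for the 8 markers and -0.07 for all genes. The share of markers called with cold in WT mice was thus near the background. Over all genes, 1707 were called higher and 1147 lower, and with library totals in place of TMM factors 1057 and 4144.

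In HY/HY mice at 8°C against 30°C, 0 of the 8 were called by edgeR's test, where the background was 0.181% higher and 0.0665% lower. An unadjusted p under 0.05 was reached by 2, Pdgfra (0.0362) and Pi16 (0.0269). Of all genes, 30 rose and 11 fell in this comparison. With the replicate number as a block 128 rose and 32 fell, and again 0 of the 8 were called. The groups did not overlap for 2 of the 8 markers, Pdgfrb and Pi16, and for 18.3% of all genes. The medians were -0.27 for the 8 markers and -0.01 for all genes on the log2 scale.

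Between genotypes at 30°C, 0 of 8 were called, against 0.562% of all genes higher and 0.441% lower in HY/HY mice, and the groups overlapped for all 8, against 18.3% of all genes without overlap. These 93 genes higher and 73 lower became 5 and 21 without WT replicate 1 at 30°C, 0 and 0 in a fit to the 6 libraries at 30°C alone, and 215 and 304 with the replicate block. An unadjusted p under 0.05 was reached at 30°C by Pdgfrb (0.0306), Ly6a (0.0414) and Cd34 (0.044). At 8°C, 0 of 8 were called, against 1.51% higher and 4.42% lower, and the groups did not overlap for 1 of 8, Pdgfra, against 35.4% of all genes. The unadjusted p was under 0.05 for Pdgfra (0.00592) and Cd34 (0.0439) at 8°C. Of all genes, 249 were called higher and 731 lower at 8°C, in place of which library totals gave 535 and 480 and the fit without HY/HY replicate 3 at 8°C gave 43 and 301. Averaged over both temperatures, 1 of 8 was called higher (Pdgfra) and 0 lower, against 2.13% and 2.27%. The cold response of HY/HY mice minus that of WT mice, tested as an interaction at an adjusted p under 0.05 alone, passed for 0 of 8, against 0.169% of all genes higher and 2.07% lower. Its unadjusted p was under 0.05 for Cd34 alone among the 8 (0.00793). These comparisons share libraries with each other: both cold and both genotype contrasts draw on the same 4 groups. Of the 52 calls of genes named beside the markers, 19 were kept in every fit with a library left out, 33 were lost in at least 1 of the 12 fits and 11 in more than 6. These 52 left out the lists of mature adipocyte, Schwann cell and skeletal muscle markers, and all thermogenic markers but Ucp1.

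**Figure D2:**
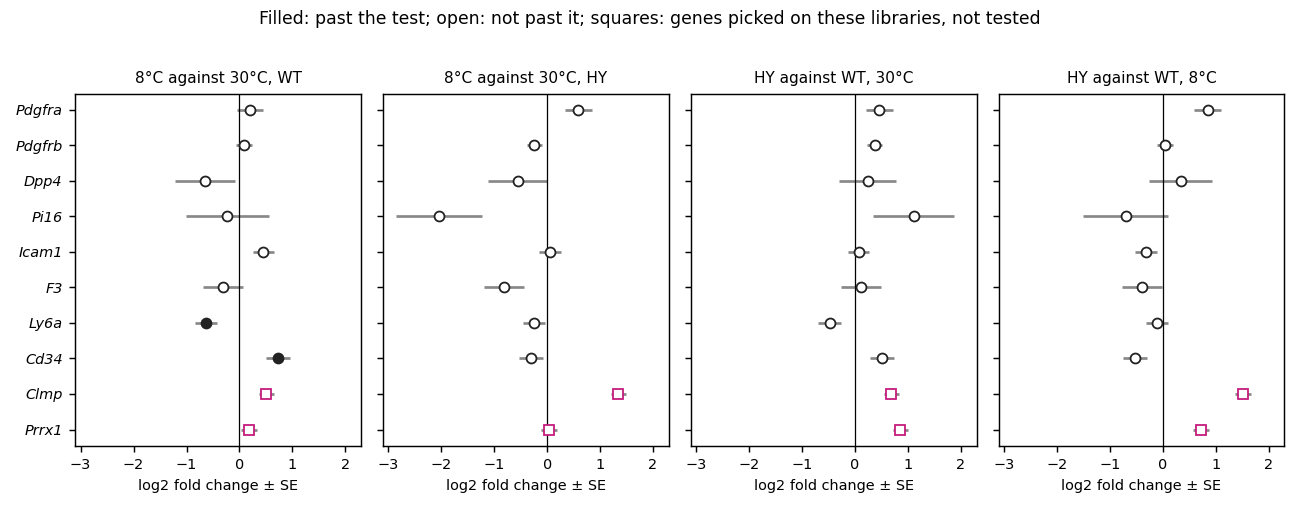
Log2 fold change with its standard error (x axis) of the 10 markers (y axis) in 4 comparisons, from edgeR's quasi-likelihood fit to 12 libraries. Filled circles passed the test (Ly6a at -0.63 and Cd34 at 0.73 with cold in WT mice), open circles did not, and open squares are Clmp and Prrx1, which were picked on these libraries and are shown without a test.

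Pdgfra encodes PDGFRα, the receptor most used to define adipocyte progenitors and fibroblasts of the fat. Its levels in WT mice at 30°C were 28.6, 25.5 and 27.6 CPM, and at 8°C 35.6, 25.9 and 32.5 CPM. In HY/HY mice they were 55, 34.1 and 23.2 CPM at 30°C, and 67.9, 53.7 and 48 CPM at 8°C. The 3 HY/HY libraries at 8°C were thus all above the WT libraries at either temperature, whereas at 30°C HY/HY replicate 3 was the lowest of all 12. The difference between genotypes averaged over temperatures was 0.66 on the log2 scale (SE 0.18, adjusted p = 0.0454, edgeR quasi-likelihood test). At 8°C alone it was 0.85 (SE 0.25, adjusted p = 0.0665), a 1.8-fold difference that missed the threshold, with the smallest exact permutation p that 3 against 3 allow (0.1). At 30°C it was 0.46 (SE 0.25, adjusted p = 0.356). Pdgfra did not pass the test with cold in WT mice (0.20, SE 0.25, adjusted p = 0.598) or in HY/HY mice (0.59, SE 0.25, adjusted p = 0.308), and the difference between those responses was 0.39 (SE 0.36, adjusted p = 0.651).

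The averaged difference of Pdgfra was called in 1 of 12 fits with a library left out, the fit without HY/HY replicate 3 at 30°C (0.78, adjusted p = 0.0107). Without HY/HY replicate 1 at 30°C it was 0.46 (adjusted p = 0.0561), and over the 12 fits it stayed between 0.46 and 0.78 with adjusted p up to 0.109. Of the 10 genes of the general fibroblast list, which include collagens and proteoglycans of the matrix, 3 were called higher in HY/HY mice on average and 0 lower, against 2.13% and 2.27% of all genes, with a median log2 difference of 0.41 (all genes -0.01). They were Serpinf1, which encodes the secreted factor PEDF (0.93, adjusted p = 0.0163), Lum (0.62, adjusted p = 0.0168) and Dcn (0.89, adjusted p = 0.0182), which encode the proteoglycans lumican and decorin. The averaged call was lost without WT replicate 2 or 3 at 8°C for Dcn, and without WT replicate 2 at 30°C or HY/HY replicate 1 at 30°C or 8°C for Lum. At 8°C the same 3 were called, against 1.51% of all genes higher, and the median was 0.57. The calls at 8°C were lost in 5 of the 12 fits with a library left out for Serpinf1, in 4 for Dcn and in 3 for Lum. In those fits the adjusted p rose to 0.122, 0.103 and 0.0917. At 30°C 0 were called and the median was 0.35. The summed level of the 10 genes was 1819 to 2706 CPM in the 6 WT libraries and 2310 to 4406 CPM in the 6 HY/HY libraries. It was highest in replicate 1 of HY/HY mice at 30°C (4406 CPM) and at 8°C (4130 CPM), the libraries that also held the highest Pdgfra level of their group. The part of the fibroblast share in the Pdgfra difference was not tested.

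Pdgfrb encodes the other PDGF receptor, carried by progenitors and by pericytes along small vessels. In WT mice it was at 72.9, 53.8 and 86.3 CPM at 30°C and at 82.5, 67.1 and 77.4 CPM at 8°C. In HY/HY mice it was at 94.5, 82.9 and 98.2 CPM at 30°C and at 76.2, 80.3 and 76.2 CPM at 8°C. The only neighbouring groups in the order of its means that did not overlap were HY/HY at 8°C and HY/HY at 30°C, and there the difference of -0.24 (SE 0.15) had an adjusted p of 0.489. Averaged over temperatures, the genotypes differed by 0.20 (SE 0.11, adjusted p = 0.254). Of 9 markers of pericytes and smooth muscle, 1 was called higher in HY/HY mice on average and 1 lower, against 2.13% and 2.27% of all genes. These were Myh11, a smooth muscle myosin (0.71, adjusted p = 0.0163), and Des, which encodes desmin (-0.91, adjusted p = 0.0452). With cold in WT mice 1 was called lower, against 6.93% of all genes: Notch3, a Notch receptor of mural cells (-0.67, adjusted p = 0.000569). The call of Des was lost in 9 of the 12 fits with a library left out, and without WT replicate 2 at 30°C its value was -0.57. Des is also a gene of skeletal muscle, and its highest level, 86.7 CPM, was in WT replicate 2 at 30°C, the library with the muscle markers. At 8°C, where the summed muscle markers were at most 11.9 CPM, Des was at 42, 51.9 and 52.4 CPM in WT mice. In HY/HY mice at 8°C it was at 28, 23 and 23.5 CPM, a log2 difference of -0.97 that was not called. The part of muscle in the level of Des was not tested.

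Among the 4 PDGF ligands, the calls fell on Pdgfc and Pdgfd. With cold in WT mice 1 of the 4 was called higher and 1 lower, against 10.3% and 6.93% of all genes. Between genotypes 1 was called higher at 30°C, at 8°C and on average, against 0.562%, 1.51% and 2.13%. The interaction called 1 lower, against 2.07%. PDGF-C acts mainly through PDGFRα and PDGF-D mainly through PDGFRβ. Pdgfc was at 15.8, 20.7 and 13.6 CPM in WT mice at 30°C and at 10, 9.58 and 11.4 CPM at 8°C, a fall of 1.62-fold (adjusted p = 0.0238). In HY/HY mice it was at 18.3, 25.1 and 22 CPM at 30°C and at 19.2, 17.3 and 25.7 CPM at 8°C. All 3 HY/HY libraries at 8°C were therefore above all 3 WT libraries, by 2-fold (log2 1.00, SE 0.20, adjusted p = 0.0118), and the averaged difference was 0.69 (adjusted p = 0.0141). The fall of Pdgfc in WT mice was lost without WT replicate 2 at 30°C or WT replicate 1 or 2 at 8°C, and its difference at 8°C without WT replicate 2 or HY/HY replicate 3 at 8°C. Pdgfd was at 6.75, 4.33 and 4.78 CPM in WT mice at 30°C and at 10.3, 11.4 and 9.3 CPM at 8°C, a rise of 1.95-fold (adjusted p = 0.00425). In HY/HY mice it was at 9.69, 10.1 and 11.9 CPM at 30°C, 1.99-fold above WT (adjusted p = 0.0358), and it was at 9.78, 10.3 and 7.71 CPM at 8°C. The call at 30°C was lost in 9 of the 12 fits with a library left out (adjusted p up to 0.108) and in the fit to the libraries at 30°C alone (adjusted p = 0.214), in which 0 genes were called. The difference between the cold responses of Pdgfd passed the test (-1.15, SE 0.26, adjusted p = 0.0467), and did not pass in 10 of the 12 fits with a library left out. Pdgfa and Pdgfb were called in none of the comparisons.

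Dpp4 encodes a cell-surface dipeptidyl peptidase and Pi16 a peptidase inhibitor, the markers of interstitial progenitors. Dpp4 was at 4.03, 7.83 and 2.55 CPM in WT mice at 30°C, at 3.12, 1.96 and 4.11 CPM in WT mice at 8°C, at 11.2, 3.55 and 2.39 CPM in HY/HY mice at 30°C and at 5.12, 4 and 2.52 CPM in HY/HY mice at 8°C. Pi16 was at 11.1, 31.4 and 7.97 CPM, at 8.03, 7.92 and 27 CPM, at 85.1, 10.6 and 13.6 CPM and at 10.1, 6.81 and 9.74 CPM in the same order of groups. For both genes the highest library of WT mice at 30°C was replicate 2 and that of HY/HY mice at 30°C was replicate 1. The highest Pi16 level among WT mice at 8°C was in replicate 3, which also held the highest Dpp4 level of that group.

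With cold in HY/HY mice the fitted log2 fold change of Pi16 was -2.04 (SE 0.81, adjusted p = 0.275), and without HY/HY replicate 1 at 30°C it was -0.44 (adjusted p = 0.844). The 3 libraries at 8°C lay below the 3 at 30°C, although the nearest, at 10.1 and 10.6 CPM, were close. Its difference between genotypes was 1.11 (SE 0.77, adjusted p = 0.472) at 30°C and -0.70 (SE 0.81, adjusted p = 0.666) at 8°C. For Dpp4 the fold changes lay between -0.65 and 0.34 with standard errors of 0.40 to 0.80, and no adjusted p was under 0.43. For Pi16 the standard errors were 0.55 to 1.11.

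Of 8 other genes of interstitial progenitors, Sema3c, which encodes a secreted semaphorin, was called higher in HY/HY mice at 30°C. It was at 4.94, 11 and 4.57 CPM in WT and at 20, 24.9 and 21.4 CPM in HY/HY mice, a 3.2-fold difference (log2 1.68, SE 0.28, adjusted p = 0.0268). At 8°C it was at 8.32, 9.81 and 10.8 CPM in WT and at 18.9, 14.6 and 18.8 CPM in HY/HY mice, and averaged over temperatures it was 2.4-fold higher in HY/HY mice (log2 1.27, adjusted p = 0.0067). The 6 HY/HY libraries were all above the 6 WT libraries for Sema3c, a pattern that Dpp4 and Pi16 did not have. The call of Sema3c at 30°C was lost without WT replicate 1 at 30°C, WT replicate 2 or 3 at 8°C or HY/HY replicate 1 at 8°C (adjusted p up to 0.0721), and the averaged call was kept in all 12 such fits. Dact2, an intracellular regulator of signalling, was called lower with cold in WT mice (2-fold, adjusted p = 0.0455). The call of Dact2 was lost in 9 of the 12 fits with a library left out, and without WT replicate 2 at 30°C its value was -0.57 (adjusted p = 0.211). Of the 8 genes, 1 was called higher between genotypes at 30°C and on average, against 0.562% and 2.13% of all genes. At 8°C 0 were called, against 1.51% higher and 4.42% lower. With cold in WT mice 1 was called lower, against 6.93%, and 0 were called in the other comparisons.

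**Figure D3:**
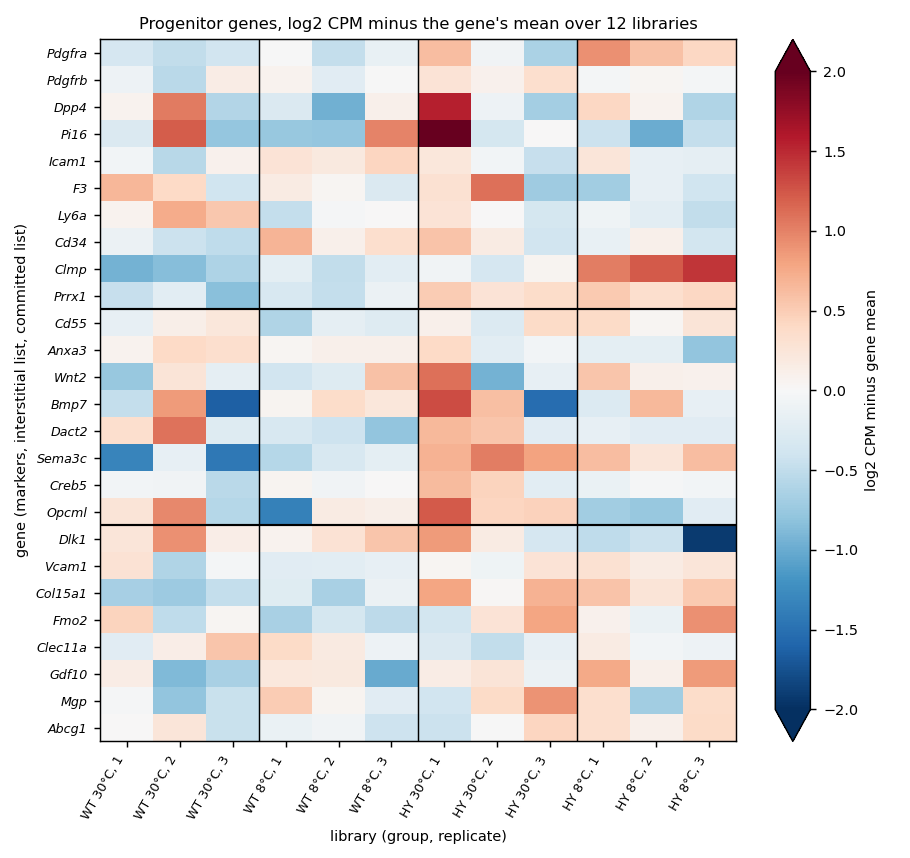
Log2 CPM minus the mean of the gene over 12 libraries (colour, from -2 to 2) for the 10 markers, 8 other genes of interstitial progenitors and 8 other genes of committed and F3-positive cells (rows) in each library (columns, by group and replicate). Pi16 and Dpp4 were highest in HY/HY replicate 1 and next highest in WT replicate 2 at 30°C, whereas Prrx1, Sema3c and Col15a1 were higher in the 6 HY/HY than in the 6 WT libraries.

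Icam1 encodes an adhesion receptor for leukocyte integrins that marks committed preadipocytes and is also carried by endothelium. It was at 14.4, 10.2 and 15.9 CPM in WT mice at 30°C and at 18.1, 17 and 20.1 CPM at 8°C. The WT groups did not overlap, but the rise of 1.36-fold (log2 0.45, SE 0.20) had an adjusted p of 0.13 and was below the fold limit. HY/HY mice held 17.4, 14.4 and 10.8 CPM at 30°C and 17.7, 13.3 and 13.2 CPM at 8°C, a log2 difference of 0.06 (SE 0.21, adjusted p = 0.923). Between genotypes, Icam1 differed by 0.07 at 30°C and by -0.31 at 8°C (adjusted p = 0.887 and 0.409).

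F3 encodes tissue factor, the receptor for coagulation factor VII, and is expressed by epithelia as well as by stroma. It was at 332, 277 and 160 CPM in WT mice at 30°C and at 234, 216 and 172 CPM at 8°C. HY/HY mice held 259, 448 and 128 CPM at 30°C and 129, 187 and 159 CPM at 8°C, so that the highest and the lowest of the 12 libraries were both HY/HY mice at 30°C. The fall with cold in HY/HY mice, -0.81 on the log2 scale (SE 0.38), had an adjusted p of 0.346, and without HY/HY replicate 2 at 30°C it was -0.29 (adjusted p = 0.798). In WT mice the value was -0.31 (SE 0.38, adjusted p = 0.584). The library with the least F3, HY/HY replicate 3 at 30°C, also held the lowest sum of mammary epithelium markers (571 CPM). The library with the most F3, HY/HY replicate 2 at 30°C, had a mammary sum of 1576 CPM. The highest mammary sum, 3921 CPM in WT replicate 2 at 30°C, went with F3 at 277 CPM. The part of the epithelium in the level of F3 was not tested.

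Of 10 binding partners of the markers, which include integrins that bind ICAM1 and factors and inhibitors that meet tissue factor, 8 passed the filter. Of these, 1 was called higher with cold in WT mice, against 10.3% of all genes. It was Tfpi2, which encodes an inhibitor of the tissue factor pathway (0.96, SE 0.31, adjusted p = 0.0435). Its level was no more than 1.89 CPM in any library, and the call was lost in 7 of the 12 fits with a library left out. In the other 5 comparisons 0 of the partners were called. Of 8 other genes of committed and F3-positive cells, Col15a1, which encodes a basement membrane collagen, was called higher in HY/HY mice in all 3 genotype comparisons. Of all genes, 0.562% were called higher at 30°C, 1.51% at 8°C and 2.13% on average. Col15a1 was at 136, 130 and 154 CPM in WT and at 371, 219 and 349 CPM in HY/HY mice at 30°C (2.23-fold, adjusted p = 0.0309). At 8°C it was at 181, 137 and 199 CPM in WT and at 320, 257 and 308 CPM in HY/HY mice (1.71-fold, adjusted p = 0.0394). The averaged log2 difference of Col15a1 was 0.97 (SE 0.14, adjusted p = 0.00577). The averaged call was kept in all 12 fits with a library left out, while the calls at 30°C and at 8°C were each lost in 7 of them (adjusted p up to 0.0939 and 0.158). The other 7 genes of that list were called in none of the 6 comparisons.

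Ly6a encodes SCA-1, a lipid-anchored surface protein used to isolate progenitors, which endothelium and some epithelia also carry. It was at 249, 397 and 343 CPM in WT mice at 30°C and at 171, 233 and 237 CPM at 8°C. The groups did not overlap, and the fall of 1.54-fold (log2 -0.63, SE 0.21) had an adjusted p of 0.0499, at the threshold. HY/HY mice held 286, 237 and 186 CPM at 30°C and 223, 204 and 169 CPM at 8°C (log2 -0.25, SE 0.21, adjusted p = 0.619). The difference between the cold responses was 0.38 (SE 0.30, adjusted p = 0.594), so the fall was not shown to differ between genotypes. The call was kept in 3 of 12 fits with a library left out, those without WT replicate 1 at 30°C, HY/HY replicate 1 at 30°C or HY/HY replicate 3 at 30°C, with fold changes between -0.79 and -0.47 and adjusted p up to 0.18. That highest p was without WT replicate 2 at 30°C, the library with the most Ly6a.

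Of 8 markers of mammary epithelium, 2 were called lower with cold in WT mice and 0 higher, against 6.93% and 10.3% of all genes. Their summed level was 2551, 3921 and 2134 CPM in WT mice at 30°C and 1430, 1573 and 1489 CPM at 8°C, and 1520, 1576 and 571 CPM and 1088, 1351 and 817 CPM in HY/HY mice at 30°C and 8°C. The 2 called were Epcam, an epithelial adhesion protein (-1.06, adjusted p = 0.0312), and Elf5, a transcription factor of luminal cells (-1.01, adjusted p = 0.0437), and the list's median was -0.99. The calls of Epcam and Elf5 were lost in 5 and 8 of the 12 fits with a library left out, and without WT replicate 2 at 30°C the value of Elf5 was -0.61. Krt5 and Krt14, keratins of basal cells that were not called, were at 314 and 252 CPM in that library and at 15.6 and 14.7 CPM in WT replicate 1 and 7.17 and 5.95 CPM in WT replicate 3 at 30°C. The keratins Krt8 (-1.17, adjusted p = 0.0151) and Krt18 (-0.94, adjusted p = 0.0297), 2 of the 8, were called lower in HY/HY mice on average, against 2.27% of all genes. The call of Krt18 was kept in 6 of the 12 fits with a library left out. Of the 8 mammary genes 0 were at 0 in any library, and the part of the epithelium in the level of Ly6a was not tested. Ly6c1, the closest relative of Ly6a and a marker of endothelium and monocytes, was at 147 ± 64.4, 144 ± 31.8, 150 ± 32.3 and 144 ± 6.45 CPM (SD, n = 3) in WT mice at 30°C and 8°C and HY/HY mice at 30°C and 8°C, and passed no test. Read pairs that fit several places in the genome were not counted, and the Ly6 genes lie in a cluster of near copies, so their counts are the less certain.

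Cd34 encodes a sialomucin of progenitors that endothelium also carries. It was at 75.5, 60.6 and 57.9 CPM in WT mice at 30°C and at 132, 87.7 and 103 CPM at 8°C, without overlap. The rise of 1.66-fold (log2 0.73, SE 0.23) had an adjusted p of 0.0369. HY/HY mice held 122, 92 and 62.7 CPM at 30°C and 74.1, 87.9 and 63.7 CPM at 8°C, so that their order of means was the opposite of that in WT mice (log2 -0.30, SE 0.23, adjusted p = 0.584). The difference between the cold responses, -1.03 (SE 0.32), had an adjusted p of 0.143 in edgeR's test and of 0.045 in DESeq2. Without HY/HY replicate 3 at 30°C it was -1.25 (adjusted p = 0.0455), and in the other 11 fits with a library left out it did not pass. Between genotypes, Cd34 differed by 0.51 at 30°C (SE 0.23, adjusted p = 0.255), by -0.52 at 8°C (SE 0.23, adjusted p = 0.207) and by -0.00 on average.

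The rise of Cd34 in WT mice was called in 7 of 12 fits with a library left out, with log2 values between 0.57 and 0.87. It did not pass without WT replicate 2 (0.69, adjusted p = 0.108) or replicate 3 (0.66, adjusted p = 0.0873) at 30°C, WT replicate 1 (0.57, adjusted p = 0.131) or replicate 3 (0.76, adjusted p = 0.081) at 8°C, or HY/HY replicate 1 at 8°C (0.74, adjusted p = 0.0506). With library totals in place of TMM factors it was 0.40 (adjusted p = 0.273), a scaling under which the median of all genes moved to -0.41. Of 9 endothelial markers, 4 were called higher with cold in WT mice and 0 lower, against 10.3% and 6.93% of all genes, with a median of 0.60, among them Kdr (0.83, adjusted p = 0.00939), Cdh5 (0.81, adjusted p = 0.0198) and Pecam1 (0.71, adjusted p = 0.0225), which encode VEGF receptor 2, VE-cadherin and CD31. The fourth, Emcn (0.60, adjusted p = 0.0432), encodes endomucin and is named after its value was seen. Library totals ended the call of all 4; leaving out a library ended it in 8 of 12 fits for Emcn, in 0 for Kdr, and for Cdh5 and Pecam1 without WT replicate 2 at 30°C or WT replicate 1 or 2 at 8°C. Their summed level was 640 to 959 CPM in WT mice at 30°C and 1149 to 1458 CPM at 8°C, against 867 to 1107 and 855 to 1106 CPM in HY/HY mice. No endothelial marker was called in the other 5 comparisons, and the part of the endothelium in the level of Cd34 was not tested.

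**Figure D4:**
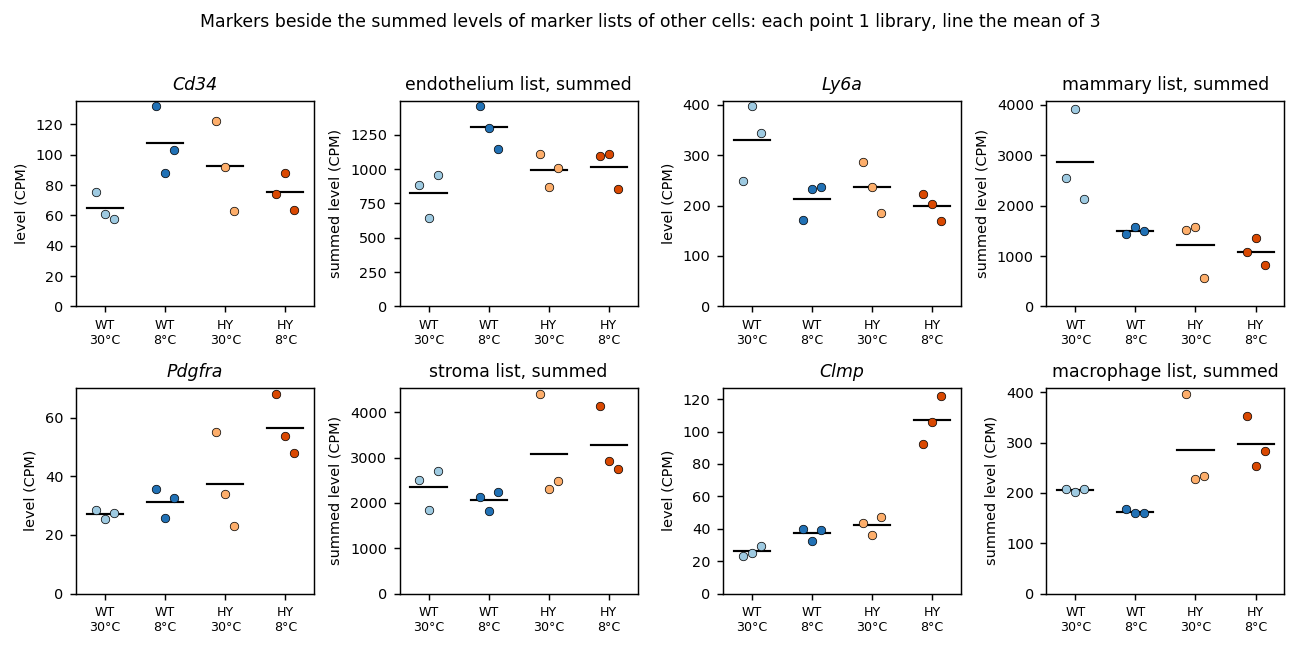
Levels of Cd34, Ly6a, Pdgfra and Clmp in each library beside the summed levels of markers of endothelium, mammary epithelium, general fibroblasts and macrophages (CPM, linear axes from 0, 1 point per library, line at the mean of 3). In WT mice at 8°C the endothelial sum (1149 to 1458 CPM) was above and the mammary sum (1430 to 1573 CPM) below that at 30°C, and the macrophage sum of HY/HY mice at 8°C (254 to 352 CPM) was above that of WT mice at 8°C (160 to 168 CPM).

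Clmp lies on mouse chromosome 9 (mm10, chr9:40682123-40785553). It was at 23.5, 25.3 and 29.5 CPM in WT mice at 30°C, at 39.8, 32.4 and 39.4 CPM in WT mice at 8°C, at 43.4, 35.9 and 47.2 CPM in HY/HY mice at 30°C and at 92.5, 106 and 122 CPM in HY/HY mice at 8°C. The lowest HY/HY library at 8°C was above every other library of the series. Neighbouring groups in this order did not overlap, apart from WT at 8°C and HY/HY at 30°C. The log2 fold change of Clmp with cold was 1.34 (SE 0.14) in HY/HY mice and 0.51 (SE 0.14) in WT mice, where it was 0.18 with library totals. The cold contrasts use the libraries on which the gene was picked, so these values are a description.

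As a description of what Clmp was picked on, its mean was 1.62-fold higher in HY/HY than in WT mice at 30°C and 2.87-fold higher at 8°C, log2 differences of 0.69 (SE 0.14) and 1.52 (SE 0.15). The log2 fold change with cold in HY/HY mice minus that in WT mice was 0.83 (SE 0.20). Of 7 macrophage markers, 3 were called higher in HY/HY than in WT mice at 8°C and 0 lower, against 1.51% and 4.42% of all genes. Their median was 0.96, and the groups did not overlap for 7 of 7, against 35.4% of all genes. They were Mrc1 (1.22, adjusted p = 0.00534) and Cd163 (1.30, adjusted p = 0.0225), which encode scavenger receptors, and Csf1r (1.17, adjusted p = 0.0119), the receptor for macrophage colony-stimulating factor. The call of Mrc1 was kept in all 12 fits with a library left out, that of Cd163 in 7, and that of Csf1r in 10, being lost without WT replicate 3 or HY/HY replicate 1 at 8°C. With cold in HY/HY mice 0 of the 7 were called, and their sum was 228 to 397 CPM at 30°C and 254 to 352 CPM at 8°C. The sum in WT mice at 30°C was 202 to 207 CPM. At 30°C 0 of the 7 were called between genotypes, against 0.562% of all genes higher and 0.441% lower, with a median of 0.59. Averaged over temperatures, 5 of the 7 were called higher in HY/HY mice and 0 lower, against 2.13% and 2.27% of all genes. The averaged median of the 7 was 0.78. The averaged calls of Mrc1 and Csf1r were kept in all 12 fits with a library left out, that of Cd163 in 9.

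Prrx1 encodes a homeobox factor of mesenchymal progenitors. It was at 24.8, 29.4 and 19.1 CPM in WT mice at 30°C, at 27.4, 24.4 and 31.6 CPM in WT mice at 8°C, at 48.4, 41.3 and 44.1 CPM in HY/HY mice at 30°C and at 49.1, 42.9 and 45.5 CPM in HY/HY mice at 8°C. The 6 HY/HY libraries, at 41.3 CPM or more, were all above the 6 WT libraries, at 31.6 CPM or less, which is the pattern on which the gene was picked. As a description, the genotypes differed 1.82-fold at 30°C and 1.65-fold at 8°C, log2 differences of 0.86 (SE 0.15) and 0.72 (SE 0.15). The log2 fold change with cold was 0.18 (SE 0.15) in WT mice and 0.04 (SE 0.15) in HY/HY mice. Prrx2, the closest relative of Prrx1, was at 0.487 to 3.4 CPM and passed no test, with an averaged difference between genotypes of -0.46 (SE 0.36, adjusted p = 0.448).

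The 250 bases before the transcription start of Pdgfra in the RefSeq table of promoters (GRCm38.p6, the mm10 assembly) are shown because Pdgfra is the marker called between genotypes. They run 5′ to 3′ on the gene's strand, and capitals mark CG dinucleotides. The window is chr5:75152001-75152250 on the plus strand. In the RefSeq annotation of genes the span of Pdgfra begins further upstream, at base 75151322, so the window lies inside that span.
Pdgfra: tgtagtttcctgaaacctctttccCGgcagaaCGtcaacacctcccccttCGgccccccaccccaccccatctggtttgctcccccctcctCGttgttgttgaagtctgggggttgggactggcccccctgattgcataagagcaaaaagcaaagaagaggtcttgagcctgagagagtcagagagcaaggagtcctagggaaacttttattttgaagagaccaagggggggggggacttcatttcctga
The window held 4 CG dinucleotides, below the median of 6 over all 32851 windows of this length. The TATA box TATAAA was absent from it on either strand, and 12.4% of all windows held it. The CCAAT box (its 5 letters searched on both strands) was absent from it, and 33.8% of all windows held it. The GC box GGGCGG was absent from it on either strand, and 32.7% of all windows held it. Of the 7 markers with an entry, a TATA box was found for Dpp4, a CCAAT box for Pi16 and a GC box for F3 and Icam1. The windows of F3 and Icam1 were also the richest of the 7 in CG, with 24 and 15. The counts of genes here do not measure binding or methylation at these windows.

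Factors known to act in progenitors, measured here in whole tissue, were counted as a further group. Of 15 that favour commitment to adipocytes, 1 was called higher and 1 lower with cold in WT mice, against 10.3% and 6.93% of all genes. Between genotypes 1 was called lower at 8°C, against 4.42%. On average 1 was called higher and 1 lower, against 2.13% and 2.27%. The interaction called 1 lower, against 2.07%. Cebpb, an early transcription factor of adipogenesis, was called in 4 comparisons. It was at 23, 23.9 and 23.1 CPM in WT mice at 30°C and at 54.8, 125 and 98.7 CPM at 8°C, a 3.98-fold rise (log2 1.99, SE 0.29, adjusted p = 0.000597). HY/HY mice held 16.3, 23.7 and 34.5 CPM at 30°C and 25.3, 25.2 and 25.7 CPM at 8°C (log2 0.04, SE 0.28, adjusted p = 0.972). The difference between the cold responses was -1.96 (SE 0.40, adjusted p = 0.031), which did not pass in 8 of the 12 fits with a library left out. At 8°C Cebpb was 3.66-fold lower in HY/HY mice (adjusted p = 0.00356). Ucp1, too, was highest in WT mice at 8°C (5048 to 6055 CPM, against 212 to 904 CPM in HY/HY mice at 8°C). The part of adipocytes in the level of Cebpb was not tested. Bmp4, which encodes a commitment signal, fell with cold in WT mice (-0.76, adjusted p = 0.0185), a call lost without WT replicate 1 at 30°C or WT replicate 1 or 3 at 8°C, and Bmp2 was higher in HY/HY mice on average (0.97, adjusted p = 0.0119), at a level of no more than 4.47 CPM in any library. Of 12 factors that hold progenitors back, Gata3 alone was called, lower with cold in WT mice, against 6.93% of all genes. It fell from 217, 258 and 144 CPM to 72.4, 79.2 and 50.9 CPM (log2 -1.61, SE 0.39, adjusted p = 0.0129). Without WT replicate 3 at 8°C the adjusted p was 0.061. Gata3 is also a factor of mammary luminal cells. Its lowest library, HY/HY replicate 3 at 30°C with 36.3 CPM, was that with the fewest mammary transcripts. The part of the epithelium in the level of Gata3 was not tested.

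Of 32 relatives of the markers by sequence, 27 passed the filter, and their median log2 difference between genotypes on average was -0.01, as for all genes. With cold in WT mice 3 of the 27 were called higher and 1 lower, against 10.3% and 6.93% of all genes. These shares were near the background. Higher were Crispld1 (0.92, adjusted p = 0.00755), a relative of Pi16, and Kdr (0.83), a relative of the PDGF receptors. Also higher was Icam2 (1.04, adjusted p = 0.0106), the endothelial relative of Icam1. Ly6e was lower (-0.72, adjusted p = 0.0288), a relative of Ly6a that is named after its value was seen. At 8°C 2 were called higher in HY/HY mice and 1 lower, against 1.51% and 4.42% of all genes. Higher were Csf1r, another receptor tyrosine kinase of the PDGF receptor family, and Fap (0.86, adjusted p = 0.0291), the fibroblast peptidase most like Dpp4. Icam2 was lower (-0.94, adjusted p = 0.0391). With a library left out, the call of Ly6e was lost in 5 of the 12 fits. At 8°C that of Fap was lost in 4 and that of Icam2 in 7. Fap was at 16.3, 10.6 and 10.7 CPM in WT and at 24.8, 20.5 and 22.8 CPM in HY/HY mice at 8°C. Averaged over temperatures, Csf1r (0.88) and Fap (0.66) were called higher in HY/HY mice and 0 lower, against 2.13% and 2.27% of all genes. The averaged call of Fap was lost in 5 of the 12 fits, that of Csf1r in 0. Of the 27 relatives 0 were called in HY/HY mice with cold, between genotypes at 30°C or for the difference between the cold responses.

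The genes most like each marker over the 12 libraries were taken by Pearson's r of log2 CPM, as a description only, since the libraries share 4 groups and their composition. For Pdgfra they were Egfr (r = 0.936), Adgra3 (0.930) and Cyp1b1 (0.925), and for Pdgfrb Daam2 (0.866), Lama4 (0.859) and Crtap (0.841). For Dpp4 they were Itm2a (0.904), Emilin2 (0.887) and Il1rl2 (0.885), and for Pi16 Rbak (0.867), Scara3 (0.859) and Myoc (0.852). Icam1 was followed by A630001G21Rik (0.898), Lsm11 (0.868) and Fxyd5 (0.857), and F3 by Slain1 (0.937), B4galnt4 (0.919) and Runx1 (0.918). The nearest to Ly6a were AC122821.1 (0.954), Dalrd3 (0.946) and Map2k7 (0.941), and to Cd34 Prcp (0.870), Bub1b (0.869) and Rflnb (0.868). Among the genes nearest to Clmp were Ncoa4-ps (0.940) and Washc2 (0.940), and the nearest to Prrx1 were Mir100hg (0.964), Antxr2 (0.946) and Rps6ka3 (0.936). These lists of 3 genes had no gene in common between any pair of markers, also not between Dpp4 and Pi16 or between Clmp and Prrx1.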

How the data were processed

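RNA from scWAT, in 12 libraries, was sequenced as paired 50-base reads. Per the study's methods, fastp was used by the authors for trimming and STAR for alignment to mm10, and the annotation is GENCODE M25. The authors deposited raw counts of read pairs per gene, for both strands and for each strand, and the sense-strand counts were used. Entries that name no gene (55.8% to 63.5% of pairs, of which 26.7% to 32.2% of all pairs fit several places) were left out. IDs were given the symbols of a list of gene names, and 2624 symbols absent from RefSeq were replaced through RefSeq synonyms, which gave Clmp. A symbol was found for 32589 of 55401 IDs, and 2662 IDs that share a symbol were not named. All antisense counts of the 10 markers were at most 10 per library. No strand is given for RefSeq genes that overlap 5 of the markers (Pdgfra, Pi16, Ly6a, Cd34, Prrx1).

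Counts were fitted in R 4.3.3 with edgeR 4.0.16 (TMM, filterByExpr, quasi-likelihood test, 4 group means, 12 libraries, 8 residual degrees of freedom); p-values are two-sided and were adjusted by Benjamini-Hochberg over 16540 genes. Levels are CPM. Exact permutation tests of 3 against 3 cannot go below 0.1. Levels per kilobase use exon lengths of an older annotation (GENCODE M1). Alternatives, with DESeq2 1.42.0 among them, are given in the closing section. The markers and gene lists were chosen with earlier results of these data known. The cold comparisons were planned over all 10 markers; since Clmp and Prrx1 were picked on these libraries, the report tests the other 8. Of each list, up to 3 called genes with the smallest adjusted p per comparison were named, besides Ucp1, Kdm3a, Ly6c1 and Prrx2. The lists of mature adipocyte, thermogenic, Schwann cell and skeletal muscle markers also held calls, to which this rule was not applied. With cold in WT mice 6 of 6 thermogenic markers were called higher, against 10.3% of all genes. Of 5 muscle markers tested 4 were called lower, against 6.93%. At 8°C, 5 of 6 thermogenic markers were called lower in HY/HY mice, against 4.42%. Higher at 8°C were 2 of 8 mature adipocyte markers, Lep and Retn, against 1.51%. Of the genes with a pattern like that of Clmp, 1 is not reported here. Libraries are taken as separate mice, and their number limits the precision.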

Additional observations from a re-analysis of the deposited data

Results flagged for a closer look

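Among the genes named in the Results, the cold response differed between genotypes by the interaction test for Cebpb, by -1.96 on the log2 scale. Cebpb rose in WT mice (1.99) and was not called in HY/HY mice (0.04). It also differed for Pdgfd, by -1.15, with a rise in WT mice (0.96) from a lower level at 30°C. Larger differences passed in lists whose genes were not named there. Of 6 thermogenic markers 2 were called lower, Cox7a1 (-3.78) and Ppargc1a (-2.19). Of 5 Schwann cell markers 1 was called lower, S100b (-3.28). The share of all genes called lower was 2.07%. Of the 8 markers chosen by role, 0 passed this test. Groups of 3 libraries were too small to test for a library far from the others.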

How the results depend on the processing

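The counts of calls among the 8 markers chosen by role were recomputed under 23 alternatives (22 for the averaged and the interaction comparison). Clmp and Prrx1, which were picked on these libraries, were left out of these counts. Of the 2 called with cold in WT mice, 1 was left with library totals (Ly6a), DESeq2 size factors, genes of mitochondrial DNA left out, only the libraries of the comparison, both strands, or the replicate block (Cd34 in each). With cold in HY/HY mice 0 of the 8 were called, and 0 under each alternative. Between genotypes at 8°C, where 0 were called, 1 was (Pdgfra) with DESeq2, no filter on low counts, only the libraries of the comparison, an adjusted p under 0.1, or the replicate block. On average 0 were left with library totals, and the interaction called 1 (Cd34) with DESeq2. With each library left out in turn, the counts were 0 to 2 for cold in WT mice. They were 0 to 0 for cold in HY/HY mice and at 30°C, and 0 to 1 at 8°C, on average and for the interaction. No called value changed sign, and values past the test in neither fit were given no direction. The interaction of Cebpb ran from -2.24 to -1.66 and did not pass in 8 of 22 alternatives; that of Pdgfd ran from -1.36 to -0.92 and did not pass in 11 of 22.

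Library totals moved the median of all genes with cold in WT mice from -0.07 to -0.41, that between genotypes at 8°C from 0.01 to 0.15 and that of the interaction from 0.04 to 0.25. They gave 43 higher and 186 lower for the interaction against 28 and 342, and 375 higher and 249 lower on average against 353 and 375. With cold in HY/HY mice, all genes called ran from 0 (only those libraries) to 461 higher and 203 lower (without HY/HY replicate 3 at 30°C), against 30 and 11. The labels do not say what a replicate number shares. Deviations of same-numbered libraries correlated at -0.0695 to 0.346, over 0.1 in 11 of 18 pairs; between HY/HY mice at 30°C and 8°C they were over 0.1 in all 3 pairs (0.112, 0.199 and 0.303), and in the other 5 combinations of groups not in every pair. The best match in another group had a library's own number in 23 of 36 cases. The replicate block raised the genes called to 128 higher and 32 lower with cold in HY/HY mice, 215 and 304 at 30°C (from 93 and 73), 397 and 805 at 8°C (from 249 and 731), and 57 and 469 for the interaction. With the block, Pdgfra at 8°C was 0.84 (adjusted p = 0.0238) and Ly6a with cold in WT mice -0.62 (adjusted p = 0.0503). The block changed no other call of the 8 markers. Depth limits Dpp4 most, with 26 read pairs in its lowest library.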
